A study of Mus musculus with 4 samples.

Results

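A set of 9 genes of glutamine and amino acid handling were followed in sorted cells of the mouse lower incisor: Slc1a5, Slc1a4, Slc7a5, Slc3a2, Slc7a1, Slc38a1, Slc38a2, Glul and Myc. These genes, of 55487 in the table, were picked by symbol with earlier results of the same comparison known, so their values are given as a description and without a test of their own. All 9 passed the low-count filter, as did 17128 genes in all. The libraries came from cells negative for CD45, Ter119 and Tie2, labelled dental progenitor cells and taken from C57 mice at postnatal day 30, with dental pulp as the labelled tissue. The 2 knockout libraries carried floxed Ptip alleles (labelled Ptipf/f;Sp7-cre) and a Cre transgene under Sp7, which is active in precursors of bone cells and odontoblasts. The 2 control libraries carried the same floxed alleles (labelled Ptipf/f;) without Cre, so what Ptip deletion does and what Cre itself does cannot be told apart. The gate selects against blood and endothelial cells and for no lineage, so Cre need not have acted in every cell collected. The labels do not say whether libraries came from separate animals or pools, and p-values measure only the spread between these samples.

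Amino acids enter cells through families of membrane carriers. Slc1a5 encodes ASCT2, a sodium-dependent exchanger that is a main route of glutamine into growing cells. Glutamine brought in this way can be exchanged for leucine by the dimer of Slc7a5 and Slc3a2, which links it to the mTORC1 growth pathway. In other cells the transcription factor MYC is known to raise Slc1a5 and other genes of glutamine use, and ATF4 raises several of these carriers when amino acids are scarce. In the bone lineage, glutamine uptake is known to feed matrix protein synthesis.

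The targeted gene was low in the libraries labelled knockout. Ptip, whose symbol is Paxip1, had 111 and 71 counts in knockouts 1 and 2, against 407 and 696 in controls 1 and 2. Library totals were 19142757 and 17770831 counts in the knockouts and 15154246 and 15394782 in the controls. A count of 3 corresponds to 0.157 to 0.198 CPM (counts scaled to a common library size), a limit that covers counting error only. Ptprc, the gene of CD45, was still at 39.2 and 9.25 CPM in knockouts, against 140.4 and 144 CPM in controls. Tek, the gene of Tie2, stood at 44.8 and 41.8 CPM in knockouts, against 21.7 and 81.2 CPM in controls. In edgeR's quasi-likelihood test with Benjamini-Hochberg adjustment, no gene passed an adjusted p of 0.05 among 17128: 0 higher (0%) and 0 lower (0%). Without adjustment, p was under 0.05 for 1254 genes with higher levels (7.32%) and 1694 with lower levels (9.89%). DESeq2, run as an alternative, called 472 of 17378 genes higher (2.72%) and 989 lower (5.69%).

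Slc1a5 was the most abundant amino acid transporter transcript of the controls and was 4.62-fold lower in the knockouts. The gene (ENSMUSG00000001918) lies on chromosome 7 from 16781340 to 16798274, on the plus strand of GRCm38. Counts were 6303 and 3438 in knockouts 1 and 2, against 16348 and 19575 in controls 1 and 2. After scaling with TMM factors these were 323 and 193 CPM in the knockouts, against 1137 and 1246 CPM in the controls. The groups lay far apart, with the controls close to each other and knockout 2 below knockout 1. Means were 258 ± 92.2 CPM in knockouts and 1191 ± 77.2 CPM in controls (SD, n = 2 each), and the fitted log2 fold change was -2.21 (SE 0.39). The value ran from -2.62 without knockout 1 to -1.84 without knockout 2. Among the 17128 tested genes, 1133 (6.61%) had a fold change as low or lower. By CPM, Slc1a5 ranked 408 and 855 among tested genes in knockouts, against 68 and 51 in controls.

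**Figure D1:**
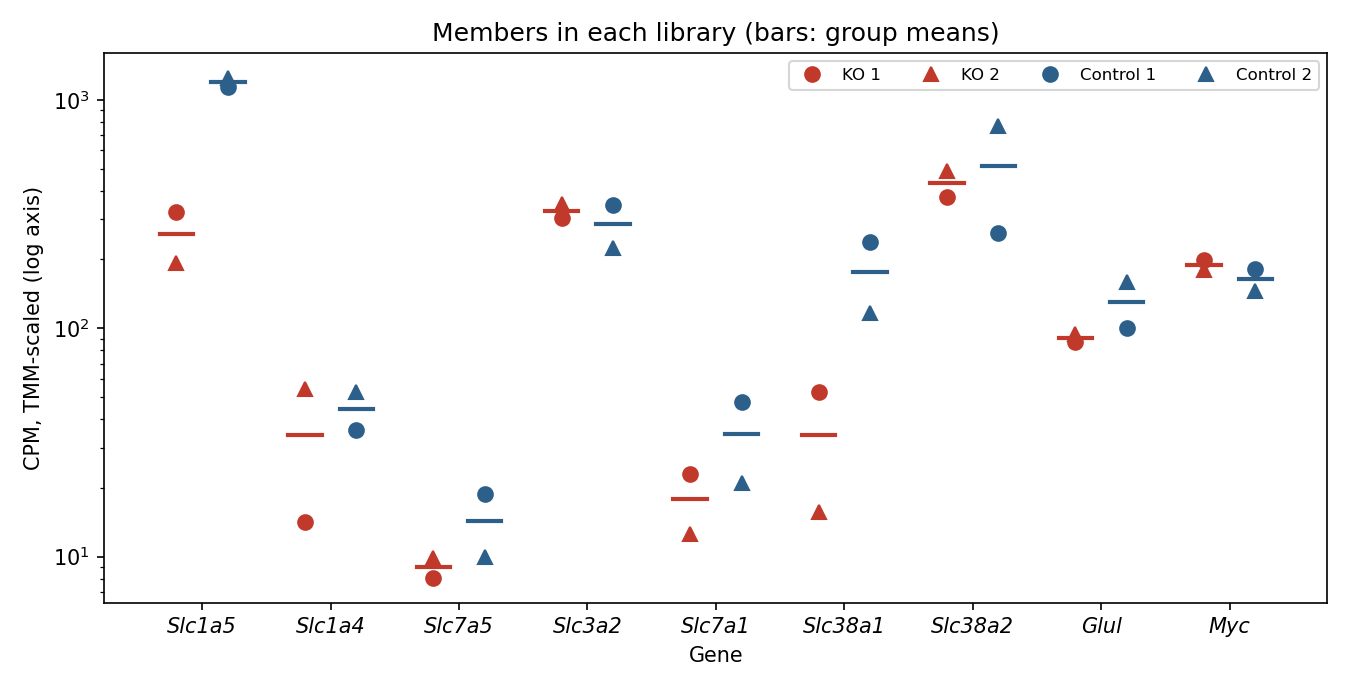
CPM of the 9 genes on a log axis, with the 2 knockout libraries in red left of the 2 control libraries in blue, circles for libraries numbered 1, triangles for those numbered 2 and bars for group means. The knockout values of Slc1a5, 323 and 193 CPM, lie below its control values of 1137 and 1246 CPM, and those of Slc38a1 also lie apart, whereas Slc3a2, Slc38a2 and Myc overlap.

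Slc1a4 encodes ASCT1, the closest relative of Slc1a5, which carries alanine, serine and cysteine. It (ENSMUSG00000020142) spans bases 20302180 to 20332713 of chromosome 11, minus strand. It had 14.2 and 54.2 CPM in the knockouts, against 35.7 and 52.7 CPM in the controls. The knockouts spanned the whole control range, and the fitted log2 fold change was -0.37 (SE 0.63). It was -1.59 without knockout 2 and 0.30 without knockout 1, so 1 library set its sign. The ratio of Slc1a5 to Slc1a4, each taken as CPM per kb of exon, was 21.3 and 3.34 in the knockouts, against 29.9 and 22.2 in the controls. The low ratio belonged to knockout 2, where Slc1a5 was lowest and Slc1a4 highest.

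RefSeq promoter windows of GRCm38.p6, from 250 bases before to 50 after an annotated start, were found for 5 of the 9 genes (Slc1a4, Slc3a2, Slc7a1, Slc38a2 and Glul), with 2 windows for Slc7a1. They were searched on both strands for the MYC E-box CACGTG, and for TGATGNAA, the core of the element through which ATF4 acts in amino acid shortage. No window of the 6 held CACGTG, a sequence found in 7.15% of all 32851 windows of this length. The window of Slc1a4 (chr11:20332664-20332963, minus strand), held TGATGNAA, which 3.97% of all windows hold. The match begins 4 bases before the start site and reads on the other strand. The Slc1a4 window is shown for that match, in capitals, beside that of Slc3a2 (chr19:8713848-8714147, minus strand), another carrier gene known to answer to ATF4, which held neither. Such letters are a description of the window and not evidence of binding. The Slc3a2 window lies inside the span of that gene, whose outer end is at base 8723369 in the annotation used here. No window at that end was searched.
Slc1a4: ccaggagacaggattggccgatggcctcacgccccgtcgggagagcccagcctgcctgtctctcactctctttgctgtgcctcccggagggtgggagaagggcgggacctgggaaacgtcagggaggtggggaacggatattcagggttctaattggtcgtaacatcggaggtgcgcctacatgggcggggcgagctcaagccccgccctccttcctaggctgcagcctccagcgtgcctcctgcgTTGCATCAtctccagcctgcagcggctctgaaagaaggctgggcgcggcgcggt
Slc3a2: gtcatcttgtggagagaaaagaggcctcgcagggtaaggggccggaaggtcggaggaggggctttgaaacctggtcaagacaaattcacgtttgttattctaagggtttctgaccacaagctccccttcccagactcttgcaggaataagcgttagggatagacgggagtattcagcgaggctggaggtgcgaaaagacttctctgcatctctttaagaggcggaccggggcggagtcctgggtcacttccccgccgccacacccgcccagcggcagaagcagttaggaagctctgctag

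Slc3a2 and its light chains gave no common direction. Slc3a2 encodes 4F2hc (CD98), the heavy chain that brings several SLC7 light chains to the cell surface. The gene (ENSMUSG00000010095, chromosome 19 from 8706882 to 8723369, minus strand) had 304 and 349 CPM in knockouts, against 347 and 224 CPM in controls. The groups overlapped, and the log2 fold change of 0.19 (SE 0.36) became -0.12 without control 2. Slc7a5 encodes LAT1, the light chain that carries leucine and other large neutral amino acids. It (ENSMUSG00000040010, chromosome 8 from 121881150 to 121907694, minus strand) had 8.10 and 9.86 CPM in the knockouts, against 18.8 and 9.93 CPM in the controls. Knockout 2 and control 2 were nearly equal, at 176 and 156 counts, and with RLE scaling they changed places (9.94 against 9.90 CPM). The log2 fold change was -0.68 (SE 0.52), and -0.12 without control 1. The span of Slc7a5 lies wholly within Gm20388 on the other strand, but the annotation used here gives the genes 0 exon bases in common, and Gm20388 had 0 counts in every library.

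Per kb of exon, Slc7a5 was a minor partner of Slc3a2 in all 4 libraries. Slc3a2 exceeded it 39.4- and 37.1-fold in the knockouts, against 19.3- and 23.7-fold in the controls. Most light chain transcript came from other genes. Slc7a6, which encodes y+LAT2, had 25.9 and 31.2 CPM per kb in knockouts, against 34.8 and 24.2 in controls. Summed over Slc7a5, Slc7a6, Slc7a7, Slc7a8, Slc7a10 and Slc7a11, light chains stood at 51.2 and 70.1 CPM per kb in knockouts, against 67.9 and 48.3 in controls. The level of Slc3a2 over that sum was 1.68 and 1.41 in the knockouts, against 1.45 and 1.31 in the controls, and these ranges overlapped.

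Slc7a1 encodes CAT-1, the broadly expressed carrier of arginine and lysine, which needs no heavy chain. It (ENSMUSG00000041313, chromosome 5 from 148327410 to 148399904, minus strand) had 23.1 and 12.6 CPM in knockouts, against 47.6 and 21.1 CPM in controls. Knockout 1 lay above control 2. The log2 fold change was -0.94 (SE 0.54), and -0.21 without control 1. Its relative Slc7a2, which encodes another cationic amino acid carrier, had 40.6 and 31.0 CPM in knockouts, against 15.5 and 12.5 CPM in controls (log2 fold change 1.36, SE 0.40).

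The SLC38 pair of system A carriers differed from each other. Slc38a1 encodes SNAT1 and Slc38a2 encodes SNAT2, both of which take up glutamine and alanine with sodium. Slc38a1 (ENSMUSG00000023169, chromosome 15 from 96571418 to 96642913, minus strand) had 52.6 and 15.7 CPM in knockouts, against 238 and 116 CPM in controls. Its groups did not overlap, though each differed within itself. The log2 fold change was -2.37 (SE 0.65), a 5.17-fold lower level, and it ran from -3.49 without knockout 1 to -1.70 without knockout 2. Slc38a2 (ENSMUSG00000022462, chromosome 15 from 96687392 to 96699730, minus strand) had 374 and 489.9 CPM in knockouts, against 262 and 767 CPM in controls. The knockouts lay between the controls, and the log2 fold change of -0.25 (SE 0.53) was 0.69 without control 2 and -0.81 without control 1. The ratio of Slc38a2 to Slc38a1 per kb of exon was 13.8 and 60.9 in the knockouts, against 2.15 and 12.9 in the controls.

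Glul encodes glutamine synthetase, which makes glutamine from glutamate and ammonia. It (ENSMUSG00000026473, chromosome 1 from 153899944 to 153909723, plus strand) had 87.1 and 94.3 CPM in knockouts, against 100.1 and 159 CPM in controls. The knockouts were close together, and control 1 lay just above them. The log2 fold change was -0.52 (SE 0.36), and -0.18 without control 2. The start of Glul overlaps 285 bases of Teddm2 on the other strand, 116 of them exonic in both, and reads there cannot be told apart in libraries that do not mark strand. Teddm2 itself had 46 and 48 counts in knockouts, against 44 and 125 in controls.

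Myc did not share the low level of Slc1a5 in the knockouts. The gene (ENSMUSG00000022346, chromosome 15 from 61985391 to 61990374, plus strand) had 199 and 180.1 CPM in knockouts, against 181 and 146 CPM in controls. Knockout 2 and control 1 were nearly equal, and with upper quartile scaling or library totals alone both knockouts lay above both controls. The mean was 189 ± 13.2 CPM in knockouts and 164 ± 25.4 CPM in controls (SD, n = 2 each). The log2 fold change was 0.21 (SE 0.32), and 0.03 without control 2. RNA level says nothing of MYC protein, which is also set by its stability.

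**Figure D2:**
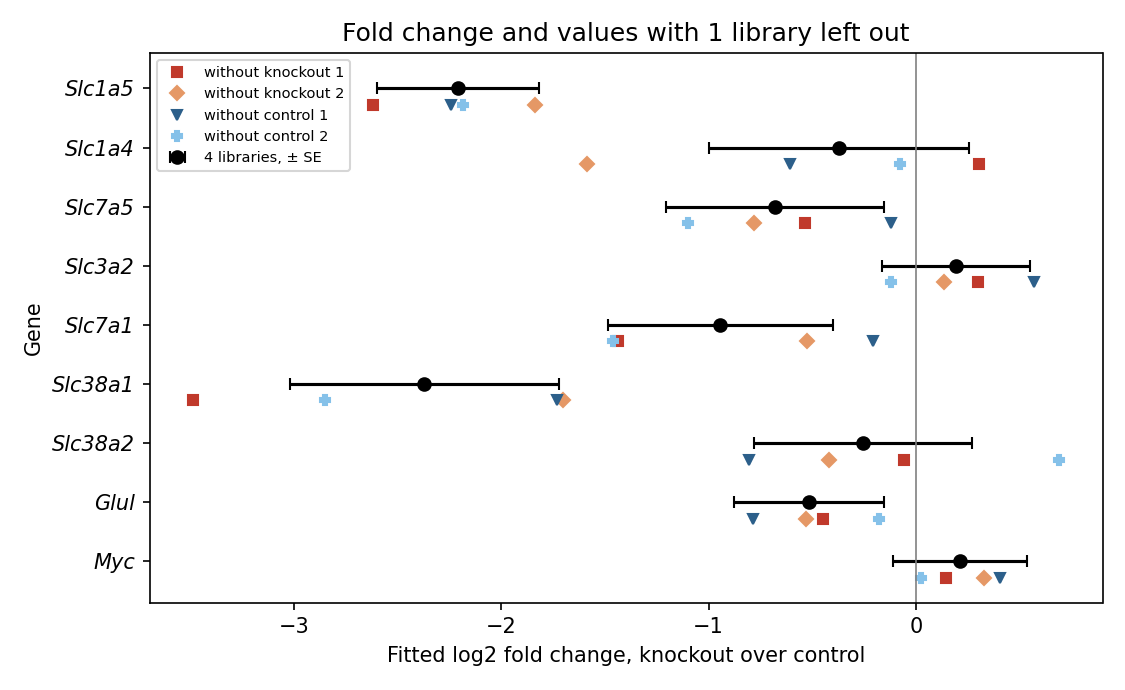
Fitted log2 fold change, knockout over control, of each gene with its SE (black) and, just below, the values with 1 library left out. Slc1a5 and Slc38a1 stay below -1.5 in every case, Slc1a4, Slc3a2 and Slc38a2 cross 0, and Myc lies between 0.03 and 0.40.

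Of the 9 genes, 4 had both knockouts below both controls and 0 had both above (Slc1a5, Slc38a1, Slc7a5 and Glul), where 24.9% of all tested genes were lower and 25.8% higher. DESeq2 called 2 of them lower (Slc1a5 and Slc38a1) and 0 higher. The genes were chosen from this comparison, so these counts carry no weight of their own. Ordered by mean CPM per kb of exon, Slc3a2 led in the knockouts at 92.4, before Myc at 69.7, Slc1a5 at 61.8, Slc38a2 at 48.9 and Glul at 27.3. The library range of Slc1a5 overlapped those of Myc and Slc38a2 there. In the controls, Slc1a5 led at 285, before Slc3a2 at 80.8, Myc at 60.2, Slc38a2 at 58.2 and Glul at 39.0. Slc3a2, Myc, Slc38a2 and Glul overlapped with their neighbours in that order. Slc1a4, Slc38a1, Slc7a5 and Slc7a1 stood below Glul in every library.

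The pool of amino acid transporter transcripts was smaller in both knockouts, and most of that difference lay in Slc1a5. Over 56 transporter genes, summed levels were 418 and 453 CPM per kb in the knockouts, against 686 and 704 in the controls. Slc43a3, reported to carry purine nucleobases, is among the 56, with a mean of 15.5 CPM per kb in knockouts and 42.1 in controls. Without Slc1a5 the sums were 340.4 and 407 CPM per kb in the knockouts, against 413 and 405 in the controls. Slc1a5 made up 18.5% and 10.2% of the pool in the knockouts, against 39.7% and 42.4% in the controls. It ranked 2 and 3 among the 56 genes in knockouts 1 and 2 and 1 in both controls, and Slc3a2 ranked 1 in both knockouts.

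**Figure D3:**
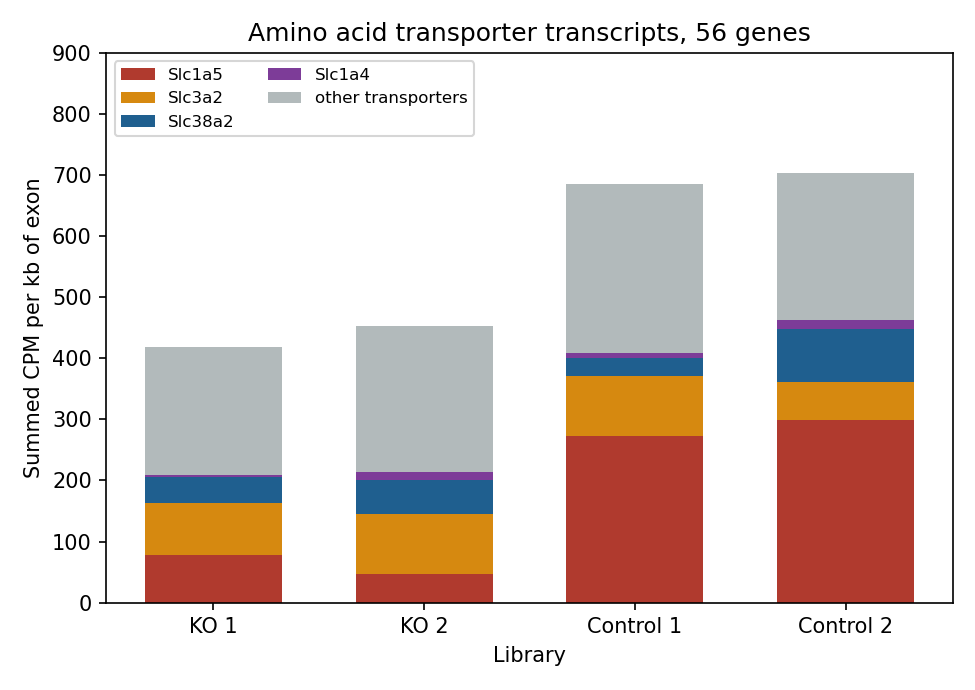
Summed CPM per kb of exon of 56 amino acid transporter genes in each library, knockouts left of controls, with Slc1a5, Slc3a2, Slc38a2, Slc1a4 and all others stacked. The Slc1a5 block is 18.5% and 10.2% of the bar in knockouts 1 and 2, against 39.7% and 42.4% in controls 1 and 2.

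Transporters outside the 9 genes went in both directions. Of the 49 other transporter genes in the 4 lists, 34 were tested, of which in 8 (23.5%) both knockouts exceeded both controls and in 12 (35.3%) both lay below. Over all tested genes, 25.8% were higher and 24.9% lower by the same rule. The median log2 fold change of the 34 was -0.20, against 0.00 over all tested genes, but leaving out control 1 gave -0.01, knockout 2 gave -0.09 and control 2 gave -0.10. Among the 34, edgeR called 0, and DESeq2 called 0 higher and 3 lower. Of all 17378 genes, DESeq2 called 2.72% higher and 5.69% lower. In the SLC1 family, Slc1a3, a glutamate carrier of glial and other cells, had 10.5 and 10.4 CPM in knockouts, against 12.5 and 23.4 CPM in controls. Among the 7 other tested SLC7 and SLC3 genes, 3 were higher (42.9%) and 0 lower (0%). Their median was 0.54, and it was 0.03 when control 2 was left out, 0.21 for knockout 1 and 0.98 for control 1. Slc7a8, which encodes the light chain LAT2, had 63.1 and 129.5 CPM in knockouts, against 55.3 and 58.3 CPM in controls, and Slc7a4 had 25.8 and 27.9 CPM, against 8.55 and 13.9 CPM.

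Among the 8 other tested SLC38 genes, 1 was higher (12.5%) and 3 were lower (37.5%), where 25.8% of all tested genes were higher and 24.9% lower. The median of the 8 was -0.52, and it was -0.29 without knockout 2 and -0.31 without control 2. Slc38a5, which encodes the glutamine carrier SNAT5, had 1.28 and 5.32 CPM in knockouts, against 15.99 and 12.9 CPM in controls (log2 fold change -2.13, SE 0.76). Slc38a9, the lysosomal arginine sensor, had 23.0 and 17.3 CPM in knockouts, against 25.7 and 41.7 CPM in controls. Slc38a11 was on the higher side (13.3 and 13.1 CPM in knockouts, against 6.61 and 4.71 CPM in controls), and Slc38a10 differed by -0.22 (SE 0.32).

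Of the 16 tested genes in the list of other amino acid carriers, 3 were higher (18.8%) and 7 lower (43.8%), where 25.8% of all tested genes were higher and 24.9% lower. The median of the 16 was -0.18, and it was 0.09 without control 2 and -0.33 without control 1. DESeq2 called Slc43a3, reported to carry purine nucleobases, lower (adjusted p = 0.0211, and 0.174 in edgeR). It had 87.5 and 51.1 CPM in knockouts, against 211 and 165 CPM in controls. DESeq2 also called Slc6a19, a neutral amino acid carrier best known from gut and kidney (adjusted p = 9.4e-05, and 0.165 in edgeR). It had 0.46 and 0.90 CPM in knockouts, against 25.4 and 3.50 CPM in controls, a log2 fold change of -4.40 that was -2.34 without control 1. The last was Slc6a14, named after its values were seen, with 1 and 0 counts in knockouts, against 60 and 24 in controls (DESeq2 adjusted p = 0.00977, and 0.165 in edgeR). Slc43a2, which encodes the leucine carrier LAT4, was at 13.6 and 11.5 CPM in knockouts, against 62.6 and 15.98 CPM in controls, a log2 fold change of -1.65 that was -0.32 without control 1. On the higher side were Slc6a15 (39.2 and 41.6 CPM in knockouts, against 5.35 and 21.6 CPM in controls) and Slc36a2 (28.7 and 61.5 CPM, against 15.2 and 21.1 CPM). Slc6a17 had 6.77 and 20.7 CPM in knockouts, against 4.73 and 3.50 CPM in controls.

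Enzymes of glutamine and glutamate metabolism had no common direction. Besides Glul 31 were tested, and both knockouts lay above both controls in 6 (19.4%) and below in 6 (19.4%), where 25.8% of all tested genes were higher and 24.9% lower. The median of the 31 was 0.01, and it was -0.16 without control 2. DESeq2 called Psat1, the serine pathway aminotransferase that uses glutamate (adjusted p = 0.0453, and 0.244 in edgeR). Psat1 had 36.4 and 18.8 CPM in knockouts, against 139 and 41.0 CPM in controls, with a log2 fold change of -1.70 that was only -0.54 when control 1 was left out. Prodh, proline dehydrogenase, was at 3.64 and 4.54 CPM in knockouts, against 26.6 and 6.05 CPM in controls, and Gclc, of glutathione synthesis, at 12.0 and 6.22 CPM, against 25.9 and 15.8 CPM. Gpt2, mitochondrial alanine aminotransferase, was at 42.3 and 36.1 CPM in knockouts, against 25.7 and 14.1 CPM in controls. Gclm and Slc25a13 were also on the higher side, with log2 fold changes of 0.91 (SE 0.41) and 0.84 (SE 0.56).

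ATF4 and amino acid response genes numbered 31, of which 3 exceeded both controls in both knockouts (9.68%) and 8 lay below them (25.8%). Over all tested genes, 25.8% were higher and 24.9% lower by the same rule. The median log2 fold change of the list was -0.16. Leaving out control 1 gave -0.07, knockout 1 gave -0.34 and control 2 gave -0.29. Trib3, a pseudokinase that ATF4 induces, had 7.94 and 9.92 CPM in knockouts, against 61.4 and 12.2 CPM in controls. DESeq2 called it lower (adjusted p = 0.0348, and 0.237 in edgeR), with a log2 fold change of -2.04 that was only -0.43 when control 1 was left out. DESeq2 also called Ddit4, an inhibitor of mTORC1, with 55.1 and 85.3 CPM in knockouts, against 182 and 195 CPM in controls (adjusted p = 0.0201, and 0.165 in edgeR). Psat1, described above, is the third gene of this list that DESeq2 called. All 3 were lower, where DESeq2 called 5.69% of all 17378 genes lower. Ddit4, Atf4 and Asns were named after their values were seen. Atf4 itself had 156 and 138 CPM in knockouts, against 244 and 196 CPM in controls (log2 fold change -0.58, SE 0.33). Asns, asparagine synthetase, had 130.2 and 95.4 CPM in knockouts, against 104 and 68.1 CPM in controls. Chac1, a glutathione-degrading enzyme, had 3.38 and 2.75 CPM in knockouts, against 16.1 and 4.07 CPM in controls. Stc2, Gdf15 and Pycr1 were on the higher side, with log2 fold changes of 1.36 (SE 0.56), 0.99 (SE 0.50) and 0.65 (SE 0.32).

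Of 23 cytosolic aminoacyl-tRNA synthetase genes and their scaffold partners, which charge tRNAs with amino acids, 4 were higher and 10 lower in both knockouts, with a median of -0.25 that was -0.03 when control 1 was left out, -0.16 for knockout 2 and -0.42 for control 2. Over all tested genes 25.8% were higher and 24.9% lower by the same rule. DESeq2 called Vars, for valine, lower (adjusted p = 0.000423, and 0.150 in edgeR). Vars had 114 and 99.4 CPM in knockouts, against 435 and 329.6 CPM in controls. Iars, for isoleucine, was at 34.1 and 41.4 CPM in knockouts, against 126 and 56.2 CPM in controls, and Cars, for cysteine, at 60.6 and 57.0 CPM, against 148 and 82.0 CPM. Kars, for lysine, was at 219 and 175 CPM in knockouts, against 134 and 97.6 CPM in controls. Eprs and Lars differed by 0.36 and 0.35 on the log2 scale (SE 0.33 each).

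Of the genes in these lists, DESeq2 called 2 higher, both in the MYC and MAX network. Of all 17378 genes it called 2.72% higher. Of 12 tested genes of the network besides Myc, 2 were higher (16.7%) and 4 lower (33.3%) in both knockouts, where 25.8% of all tested genes were higher and 24.9% lower. The median of the 12 was -0.13, and it was 0.12 when control 1 was left out, -0.25 for knockout 2 and -0.45 for control 2. Mxd4, a MAX partner that opposes MYC, had 94.3 and 134 CPM in knockouts, against 30.7 and 40.9 CPM in controls (log2 fold change 1.67, SE 0.37). DESeq2's adjusted p for it was 0.00596, and edgeR's 0.161. Max, the obligate partner of MYC, had 144 and 33.01 CPM in knockouts, against 24.6 and 24.2 CPM in controls (DESeq2 adjusted p = 0.0353, and 0.229 in edgeR). Knockout 1 set that value, and without it the log2 fold change was 0.44. Mnt had 11.0 and 13.2 CPM in knockouts, against 43.2 and 21.3 CPM in controls, and Mxd1 and Zbtb17 differed by -0.92 (SE 0.38) and -0.49 (SE 0.32).

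Genes of growth and ribosome biogenesis that MYC is known to raise were lower in both knockouts in 13 cases of 38 and higher in 4. These are 34.2% and 10.5%, where 24.9% of all tested genes were lower and 25.8% higher. The median log2 fold change of the list was -0.19, with 0.02 without knockout 2 and -0.33 without knockout 1. DESeq2 called 1, Tfrc, the transferrin receptor gene (adjusted p = 0.000935, and 0.154 in edgeR), which is also in the erythroid list. It had 20.6 and 11.2 CPM in knockouts, against 63.3 and 68.6 CPM in controls. Ptma and Rrp12 had log2 fold changes of -1.16 (SE 0.43) and -0.98 (SE 0.45). Ccnd2, the gene of cyclin D2, had 436 and 303 CPM in knockouts, against 168 and 193 CPM in controls, and Eif4e and Srm differed by 0.71 (SE 0.32) and 0.54 (SE 0.34).

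The list of mTORC1 and lysosomal amino acid sensing held 43 tested genes, 8 on the higher (18.6%) and 5 on the lower side (11.6%) in both knockouts. Both shares were below those of all tested genes, 25.8% and 24.9%. The median of the list was 0.00, and it lay between -0.12 without knockout 2 and 0.13 without control 1. DESeq2 called Mtor, the kinase gene itself, lower (adjusted p = 0.0433, and 0.174 in edgeR). It had 24.8 and 26.9 CPM in knockouts, against 56.7 and 71.0 CPM in controls. Lamtor4, a subunit of the lysosomal scaffold, had 59.2 and 39.6 CPM in knockouts, against 22.2 and 18.6 CPM in controls. Rheb, the GTPase that activates mTORC1, had 266 and 244 CPM in knockouts, against 171 and 145 CPM in controls. Castor1, Bmt2 and Deptor differed by 0.56 (SE 0.51), -1.08 (SE 0.56) and -1.01 (SE 0.53) on the log2 scale.

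**Figure D4:**
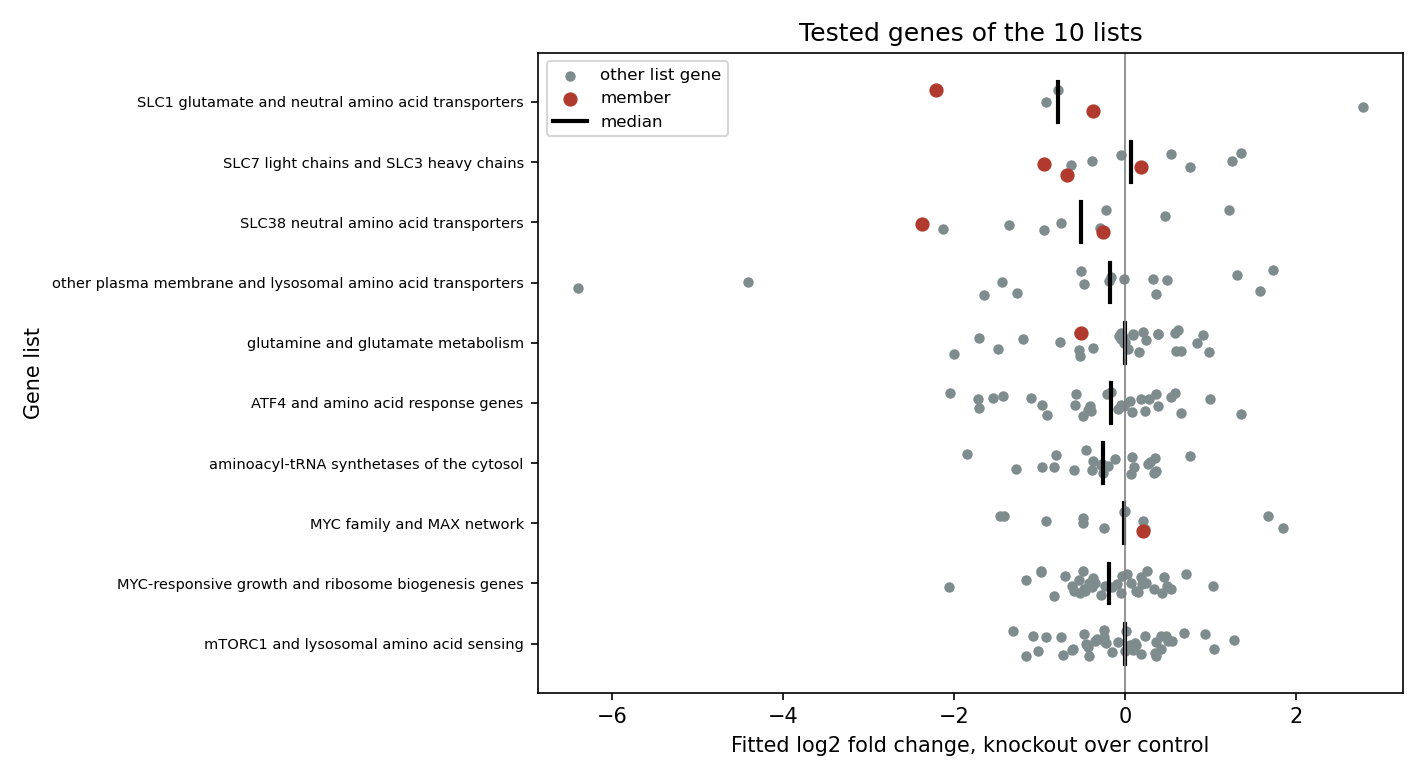
Fitted log2 fold change, knockout over control, of each tested gene in the 10 lists, with the 9 chosen genes in red, other genes in grey and a black bar at the list median. Medians lie between -0.78 (SLC1 family, 5 tested genes) and 0.07 (SLC7 and SLC3 genes, 10 tested), and each list has genes on both sides of 0.

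The genes closest to Slc1a5 in pattern were Cacna1e, Kif15, Tfrc, Adam19 and Aff3. They were ranked by the root mean square difference in log2 CPM, centred per gene over the 4 libraries, among 11896 genes averaging at least 5 CPM. That difference was 0.0616 for Cacna1e, a calcium channel gene, 0.0682 for Kif15, a mitotic kinesin, and 0.0859 for Tfrc. Adam19, a membrane protease, had 0.0879 and Aff3 0.0927. Among the other 8 genes followed here Slc38a1 was closest at 0.558, in place 524, whereas Myc at 1.26 was in place 6248 and Slc3a2 at 1.31 in place 6892. With 4 libraries in 2 groups, such likeness describes mainly a shared difference between the groups.

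Blood cell and cell division markers were, like Slc1a5 and Slc38a1, lower in the knockout libraries. Of 14 tested leukocyte markers, 11 lay below both controls in both knockouts and 0 above, with summed levels of 1139 and 290.0 CPM in knockouts, against 7219.5 and 2518 CPM in controls. Of 15 leukocyte markers matched, Cd3e was at 0 in all libraries. Of 14 erythroid markers, 13 were lower and 0 higher, at 255 and 252 CPM in knockouts, against 972 and 904 CPM in controls. Of 16 proliferation markers, 15 were lower and 0 higher, at 1005 and 618 CPM in knockouts, against 3259.6 and 1914 CPM in controls. Over all tested genes 24.9% were lower and 25.8% higher by the same rule. DESeq2 called 6 of the leukocyte, 11 of the erythroid and 10 of the proliferation markers lower, and edgeR called 0. Of 17378 genes, DESeq2 called 5.69% lower and 2.72% higher. In the lists given further on, it called 7 dental mesenchyme markers higher and 1 lower, 2 odontoblast and bone markers higher, and 4 Schwann cell markers and 1 epithelial marker lower. The part of these markers in the values of Slc1a5 and Slc38a1 was not tested. In bulk RNA, fewer cells of a type and less RNA per cell cannot be told apart.

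The sum of leukocyte markers differed more between the controls than Slc1a5 did, but Ptprc, a gene of that list, did not. The sum was 7219.5 CPM in control 1 and 2518 CPM in control 2, whereas Slc1a5 stood at 1137 and 1246 CPM in the same libraries. Ptprc was at 140.4 and 144 CPM there. Slc38a1, at 238 and 116 CPM, was highest in control 1 and lowest in knockout 2, as the leukocyte, proliferation and erythroid sums all were, the last by small margins. The erythroid sum, like Slc1a5, was nearly equal between the controls. Between the knockouts the erythroid sum was also nearly equal, at 255 and 252 CPM, whereas Slc1a5 stood at 323 and 193 CPM. Ptprc (39.2 and 9.25 CPM), the leukocyte sum (1139 and 290.0 CPM) and the proliferation sum (1005 and 618 CPM) were, like Slc1a5, lower in knockout 2 than in knockout 1. What these likenesses and differences owe to cell content was not tested.

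Dental epithelium and ameloblast markers were lower in 7 cases of 12, at 34960.0 and 42107 CPM in knockouts, against 63731 and 22865 CPM in controls. Endothelial markers were lower in 7 of 12 (1002 and 992 CPM in knockouts, against 1234 and 1851 CPM in controls). Pericyte and smooth muscle markers were lower in 3 of 10 (600.0 and 1455 CPM in knockouts, against 888 and 1546 CPM in controls). Schwann cell markers were higher in 2 and lower in 4 of 9 tested (454 and 439 CPM in knockouts, against 801 and 1254 CPM in controls). Foxd3 of that list was at 0 in 3 libraries, all but control 2. Dental mesenchyme markers, those of the labelled tissue, were present in all libraries except Barx1, at 0 in control 1. They were higher in 11 of 15 tested and lower in 1, at 4252 and 4264 CPM in knockouts, against 1194 and 1642 CPM in controls. Odontoblast and bone markers were higher in 3 and lower in 5 of 12 (17284 and 29514 CPM in knockouts, against 21236 and 47758 CPM in controls). By the same rule, 25.8% of all tested genes were higher and 24.9% lower.

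**Figure D5:**
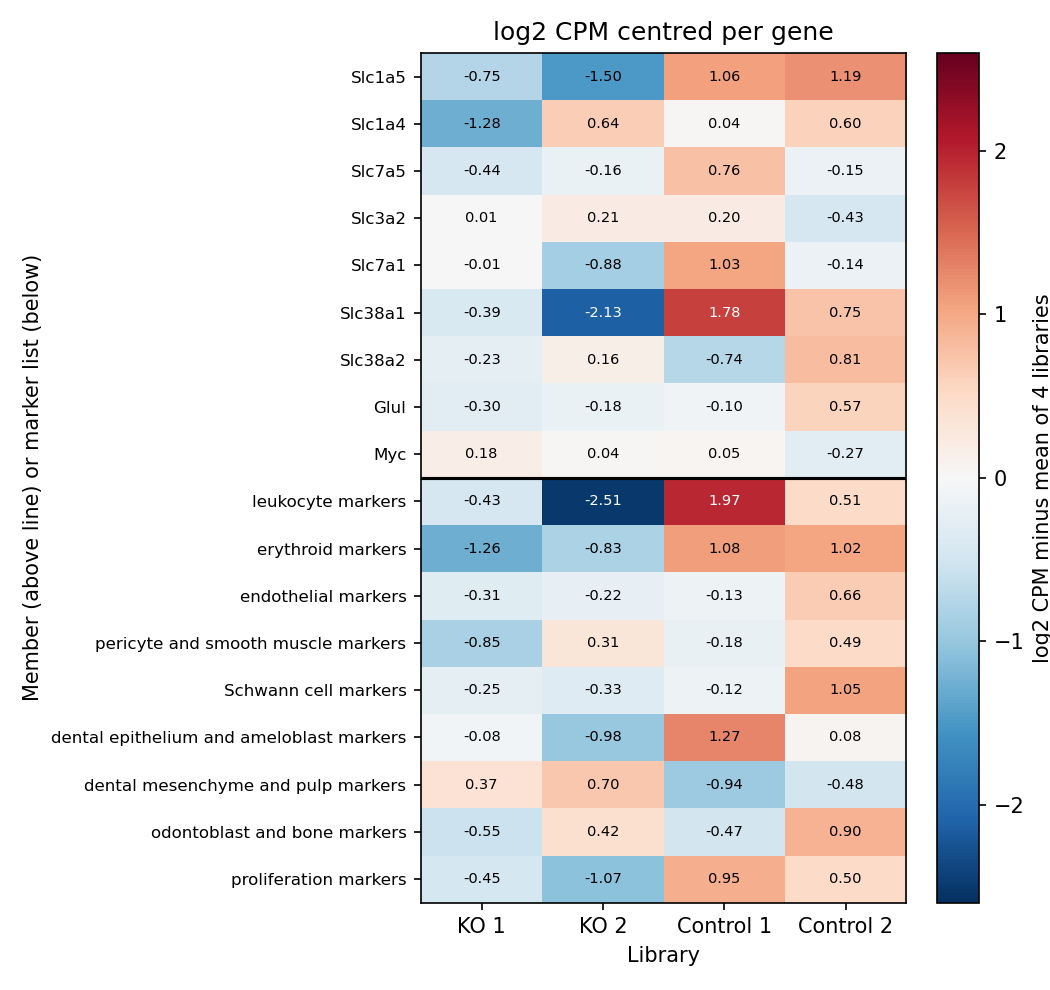
log2 CPM minus the mean of the 4 libraries, for the 9 genes (above the line) and for the median gene of each marker list (below), with knockouts left of controls. Slc1a5 is at -0.75 and -1.50 in knockouts against 1.06 and 1.19 in controls. Erythroid markers are at -1.26 and -0.83 against 1.08 and 1.02, and proliferation markers at -0.45 and -1.07 against 0.95 and 0.50. Leukocyte markers, at -0.43 and -2.51 against 1.97 and 0.51, differ more within each group.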

How the data were processed

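Polyadenylated RNA of sorted incisor cells was measured in 4 libraries. Per the labels' protocols, cDNA was made with oligo-dT priming and template switching, amplified by PCR and cut with a transposase kit, which marks neither strand nor molecules. The authors deposited raw counts, 1 table with a row per Ensembl gene. The tools named in the submitters' processing notes are featureCounts 2.0.1, Bowtie2 2.3.5.1 and Trim Galore 0.6.6, with GRCm38 as the build. For the annotation release, the strand setting and reads with several matches, the entry is: not given in the sources used here. Symbols, coordinates and exon lengths (union of exons) came from GENCODE M21, which held 55227 of the 55487 IDs. Columns were matched to samples by title.

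The test was edgeR 4.0.16 (R 4.3.3): TMM scaling, filterByExpr, the quasi-likelihood F-test with genotype as the only term, two-sided, Benjamini-Hochberg adjustment over 17128 genes, threshold 0.05. SEs were computed as the absolute log2 fold change divided by the square root of F. The biological coefficient of variation was 49.2%. CPM values use TMM-scaled library sizes. Alternatives were limma-voom (limma 3.58.1) and DESeq2 1.42.0, with other scalings, filters, a looser threshold of 0.1, a replicate block and each library left out. Leaving one out leaves a lone sample, whose variation is taken to be that of the other genotype.

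The 9 genes and the 10 pathway and 9 marker lists were chosen with earlier results of these data known. A list gene counts as higher or lower when both knockouts lie beyond both controls, which held for 25.8% and 24.9% of all tested genes. Named from each list were up to 3 such genes per direction with the largest fold changes and at least 5 CPM in the higher group, and the 5 genes most like Slc1a5 (prior count 2 on the log scale). Exceptions are stated. Mars, Pycrl and Pqlc2 were matched through RefSeq synonyms, and Ahsp of the erythroid list was not matched.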

Additional observations from a re-analysis of the deposited data

How the results depend on the processing

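Calls over all genes depended on the tool and the libraries, and the fold changes of the 9 genes on the libraries. With edgeR's filter on low counts removed there were 449 genes higher and 1005 lower. In that fit the prior degrees of freedom were infinite, so a gene's own spread did not enter its p. DESeq2 called 472 higher and 989 lower. With 1 library left out edgeR called between 0 and 215 genes higher and between 0 and 703 lower: leaving out knockout 1 gave 215 and 703, control 1 gave 95 and 214, knockout 2 gave 15 and 1, and control 2 gave 0 and 0. Other scalings, the stricter filter, limma-voom and an adjusted p under 0.1 each gave 0 and 0. The libraries share only replicate numbers: deviations of same-numbered libraries from their group means correlated at 0.145 across genes, and the labels name no pairing. With the replicate block, edgeR called 59 higher and 185 lower, Slc1a5 and Slc38a1 among them. The 9 genes were chosen from this comparison, so calls on them carry no weight, and the reported edgeR fit called 0 of them. With the block, Slc1a5 had a log2 fold change of -2.25.

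Over 108 alternative values for the 9 genes, 105 kept their sign. The exceptions in sign all came from leaving out 1 library: Slc1a4 without knockout 1, and Slc3a2 and Slc38a2 without control 2. The other alternatives used the same 4 libraries, so their shared sign says little about stability. For Slc1a5 the range was -2.62 to -1.84. With 2 libraries a group, the reported edgeR fit called no gene at any size of difference, and no detectable size is given.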
